A study of Homo sapiens with 8 samples.

Results

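J.gamma1 is a human T-cell acute lymphoblastic leukaemia (T-ALL) line derived from Jurkat cells, and the data described here are its response to a lower level of LDB1. RNA sequencing was performed on J.gamma1 cells that carried an shRNA against LDB1 (sh-LDB1, 2 libraries) or a control shRNA (sh-NC, 2 libraries). These were all the J.gamma1 libraries, 4 of the 8 in the series, and the other 4 came from 6T-CEM, a T-ALL line derived from CCRF-CEM cells, with the same pair of shRNA groups. No drug or other agent separates the groups, and both groups carry a lentiviral shRNA vector and were selected for it. The study does not name which of its LDB1 shRNAs the sequenced cells carried, and each line stands for the leukaemia of a single patient. Nothing in the labels says that the libraries of a group came from separate cultures, so p-values measure the spread between these libraries, which may be technical. Counts summed to 30438448 and 30604977 with sh-NC, and to 26160492 and 27950311 with sh-LDB1. Of 64252 genes in the count table, 17215 passed a filter on low counts and were tested.

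LDB1 is an adaptor protein that binds no DNA itself. It dimerizes and bridges LIM-only proteins and the transcription factors they hold, among them TAL1 or LYL1 with an E protein, GATA factors and RUNX1, and single-stranded DNA-binding proteins (SSBP) protect it from degradation. Such complexes bring enhancers to promoters, keep blood stem cells and drive red cell and platelet genes, and in T-ALL they hold part of the leukaemic programme in place.

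LDB1 itself (ENSG00000198728, chromosome 10 of GRCh38) stood at 1816 and 1766 normalized counts under sh-NC, compared with 1006 and 928 under sh-LDB1. Where counts are set against each other, the sh-NC libraries come first and replicate 1 before replicate 2, and a lone value in parentheses after a gene is its log2 fold change. A normalized count is a count divided by the library's effective size and brought back to the scale of an average library. The groups did not overlap, and the knockdown group held 54% of the control level, which on the log2 scale is -0.89 (standard error 0.075, adjusted p = 3.68e-06). Every adjusted p is a Benjamini-Hochberg value from the edgeR quasi-likelihood test across all genes tested. The designed targets of the study's shRNAs are shown because they are the part of the transcript on which the knockdown acts. Capitals mark bases 14 to 20, which lie opposite the guide strand's seed.
sh-LDB1#1: ggacagaggagtgTGACAATc
sh-LDB1#2: gctacttccgcagCATCTTTg
sh-LDB1#3: ggataaagacgtgGCACTTCa
Each target is 21 bases of LDB1 exons on the minus strand. The first spans the junction of exons 4 and 5 (chr10:102110959-102111076 with the intron between them), the second lies in exon 6 (chr10:102110657-102110677) and the third in exon 7 (chr10:102109971-102109991). The third is in 3 of the 4 annotated transcripts that were searched, and the others are in all 4.

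The libraries carried the markers of their label. All 15 markers of T-ALL lines passed the filter, and their summed level was between 117627 and 118320 normalized counts with sh-NC and between 142032 and 143082 with sh-LDB1. J.gamma1 is known as a Jurkat variant that lacks PLCγ1 protein. The PLCG1 transcript was present in every library, with 8296 and 8220.0 normalized counts under sh-NC and 5903 and 5675 under sh-LDB1. Of the markers of other blood lineages, 10 B-cell, 4 myeloid and 3 natural killer genes passed the filter. Their summed level was 2803 and 2811 with sh-NC against 3589 and 3497 with sh-LDB1 for the B-cell genes, and 995 and 988 against 646 and 613 for the natural killer genes. The myeloid sum, 1801 and 2409 against 1209 and 1203, was mostly CEBPE with sh-NC and mostly AIF1 with sh-LDB1. AIF1 had 14.3 and 406 with sh-NC and 882 and 869 under sh-LDB1, so that the controls differed widely, and it did not pass the test (adjusted p = 0.406). GAPDH, a glycolytic enzyme often used as a reference, had 112167 and 113051 normalized counts under sh-NC and 112838 and 113602 under sh-LDB1 and did not pass the test (log2 fold change 0.01).

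To be called, a gene needed both a log2 fold change larger than 1 in size and an adjusted p below 0.05. By this rule 2386 genes were called in J.gamma1, 13.9% of those tested, of which 1149 (6.67%) were higher and 1237 (7.19%) lower in LDB1-knockdown cells. Past a log2 fold change of 2 there were 370 genes higher and 305 lower. The p-value alone was passed by 51.5% of the genes tested, 25% higher and 26.5% lower. Every called gene had groups that did not overlap, so separation of the groups adds nothing to a call. In the sh-NC libraries the genes that rose had a median of 31.9 normalized counts and those that fell a median of 271. Part of this gap is fixed by the call rule, since a rising gene must be lower in the controls and a falling gene higher. By the mean level of all 4 libraries, 13.8% of the 4304 lowest genes rose and 9.32% fell. Among the 4304 highest, 1.58% rose and 4.28% fell. Long non-coding RNAs rose more often than they fell (10.9% and 6.74% of 1751), whereas protein-coding genes fell more often (7.81%, against 5.8% that rose, of 12855).

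**Figure D1:**
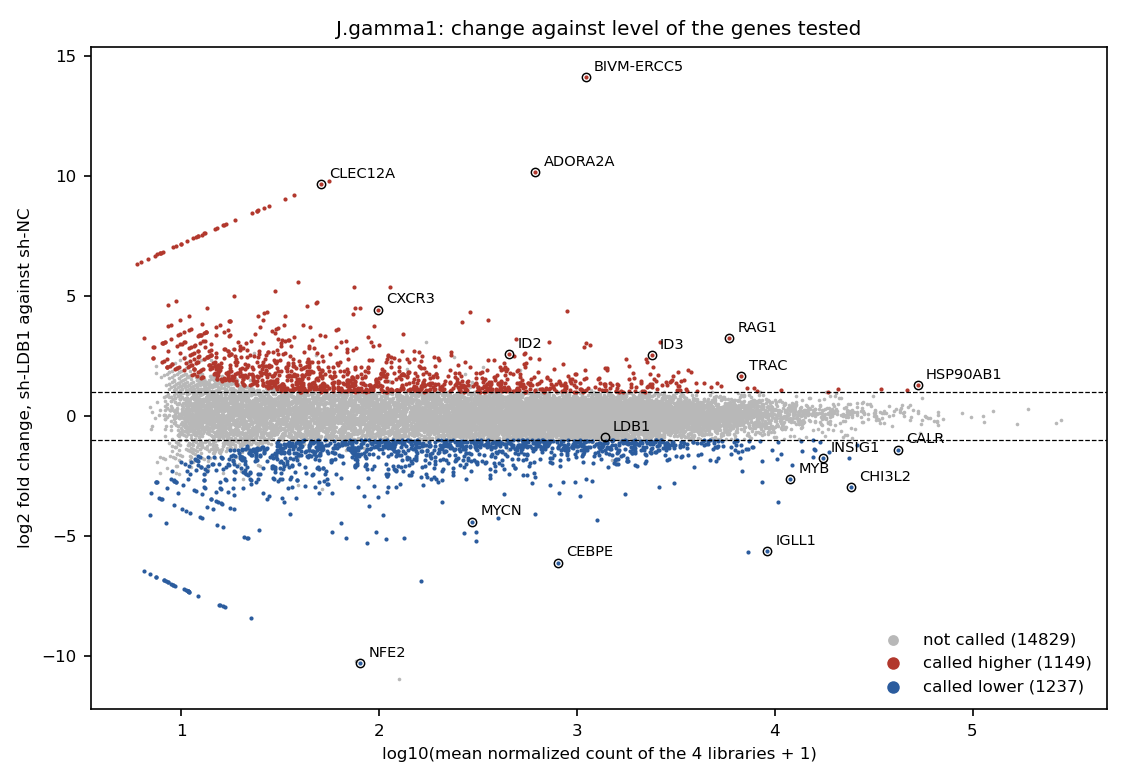
Each point is 1 of the 17215 genes tested, with the mean level of the 4 J.gamma1 libraries as log10(normalized count + 1) on the x axis and the log2 fold change of sh-LDB1 against sh-NC on the y axis. Dashed lines mark a log2 fold change of 1 in either direction, the slanted rows of points at the left are genes with no count in one group, whose fitted fold change has no fixed size, and LDB1 lies just inside the lower line at -0.89, past the test on p but short of the fold threshold.

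By absolute amount, the 5 genes that gained most included 3 chaperones. HSP90AB1, a cytosolic HSP90 chaperone, had 31534 and 30050.3 normalized counts under sh-NC and 73157 and 76188 under sh-LDB1. HSPA8, the constitutive HSP70, had 21381 and 21990.4 against 47784 and 46927, and HSP90B1, the HSP90 of the endoplasmic reticulum, had 13103 and 13257 against 28368 and 28342. Their log2 fold changes lay between 1.11 and 1.28, with groups far apart. The mitochondrial 12S ribosomal RNA MT-RNR1 (1.09) and the translation factor EIF5A (1.00) completed the leading 5, but both lay close to the threshold. MT-RNR1 was at 0.98 without sh-NC replicate 1 and at 0.99 without sh-LDB1 replicate 2, and EIF5A was at 0.96 without sh-LDB1 replicate 2. The genes that lost most were CALR, CHI3L2, SCD, MYO7B and INSIG1. CALR, a calcium-binding chaperone of the endoplasmic reticulum, went from 60913 and 60909 normalized counts to 22664 and 23284, a change on the log2 scale of -1.41 (standard error 0.040, adjusted p = 1.98e-09). CHI3L2, a chitinase-like secreted protein, went from 41958 and 44425 to 5543 and 5476, and MYO7B, an unconventional myosin, from 36572 and 36206 to 16056 and 15431. SCD and INSIG1 belong to lipid synthesis and are taken up with it.

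Among the genes that fell by the largest factor were several transcription factors. NFE2, a factor of the platelet and red cell lineages, had 170.3 and 147 normalized counts under sh-NC and 0 and 0 under sh-LDB1, at least 50.1-fold lower when the knockdown group is set to 3 counts in each library. CEBPE, a granulocyte transcription factor, had 1503 and 1645 against 32.5 and 13.3, a change on the log2 scale of -6.11 (standard error 0.23, adjusted p = 7.58e-07) that was -6.87 without sh-LDB1 replicate 1. Both knockdown libraries lay at a few percent of the controls or less.

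ALDH1A2, which makes retinoic acid, had 13952 and 14688 normalized counts under sh-NC and 275 and 279.7 under sh-LDB1, and IGLL1, the surrogate immunoglobulin light chain, had 17292 and 18534 against 388 and 329. These 2 abundant genes kept 1.94% and 2% of the control level, with log2 fold changes of -5.69 (standard error 0.062) and -5.64 (standard error 0.08). MYCN, a MYC family oncogene, had 586 and 537 against 21.7 and 30.7, and ETV5, an ETS factor induced by ERK signalling, had 2433 and 2407 against 134 and 102. ETV5 shares exon bases with DGKG on the same strand, and the summed counts of both still changed by -2.23 on the log2 scale. SERPINB2, a protease inhibitor, had 253 and 261 against 5.42 and 9.22, and HES2, a HES family repressor, had 519 and 522 against 11.9 and 22.5. ZCCHC12, a zinc finger protein, had 99.9 and 119 against 7.58 and 0, and its log2 fold change of -4.84 ran from -9.81 without sh-LDB1 replicate 1 to -3.83 without sh-LDB1 replicate 2.

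Several of the 12 genes that rose by the largest factor encode receptors. ADORA2A, an adenosine receptor, had 0.951 and 0.953 normalized counts with sh-NC, 1 read in each library, and 1234 and 1226 under sh-LDB1. The ratio was 1292 (95% interval 357 to 10674), where the exact interval covers counting error only. SPECC1L-ADORA2A, a read-through gene that shares exon bases with ADORA2A, fell from 112 and 129 to 8.67 and 2.05. Summed over both genes the log2 ratio was 3.35.

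CLEC12A, an inhibitory lectin receptor, had 0 and 0 normalized counts under sh-NC and 101 and 99.4 under sh-LDB1, at least 35-fold higher. CXCR3, a chemokine receptor of effector T cells, had 5.71 and 11.4 against 196 and 177. TLR9, the endosomal receptor for unmethylated DNA, had 5.71 and 6.67 against 151 and 135. STRA6, the cell's receptor for retinol-binding protein, had 6.66 and 6.67 against 164 and 138, and HKDC1, a hexokinase-like enzyme, 5.71 and 4.76 against 223 and 219. The log2 fold changes of CXCR3, TLR9, STRA6 and HKDC1 lay between 4.42 and 5.37, and in each the groups lay far apart. COL21A1, a collagen chain, had 4.76 and 1.91 against 133 and 155 (log2 fold change 5.38, or 6.14 without sh-NC replicate 1), and RIMBP2, a synaptic adaptor, had 26.6 and 28.6 against 569 and 529.

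A further 5 of the 24 genes with the largest changes were read-through genes, whose exons belong to a pair of neighbours, and their counts depend on how reads were divided. BIVM-ERCC5 went from 0 and 0 normalized counts to 2132 and 2295, but summed with BIVM and ERCC5 the log2 ratio was -0.13. MSANTD3-TMEFF1 went from 0 and 0 to 129 and 90.2, and its sum with MSANTD3 and TMEFF1 changed the other way, by -1.26. For SENP3-EIF4A1 the log2 fold change of 4.35 became 0.42 in the sum, for RPL36A-HNRNPH2 -4.85 became -0.07, and for PTGES3L-AARSD1 -5.22 became -0.34. SENP3-EIF4A1 and PTGES3L-AARSD1 also lost their call without either sh-NC library (adjusted p of 0.171 to 0.286). No change of expression is read from these 5 genes.

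**Figure D2:**
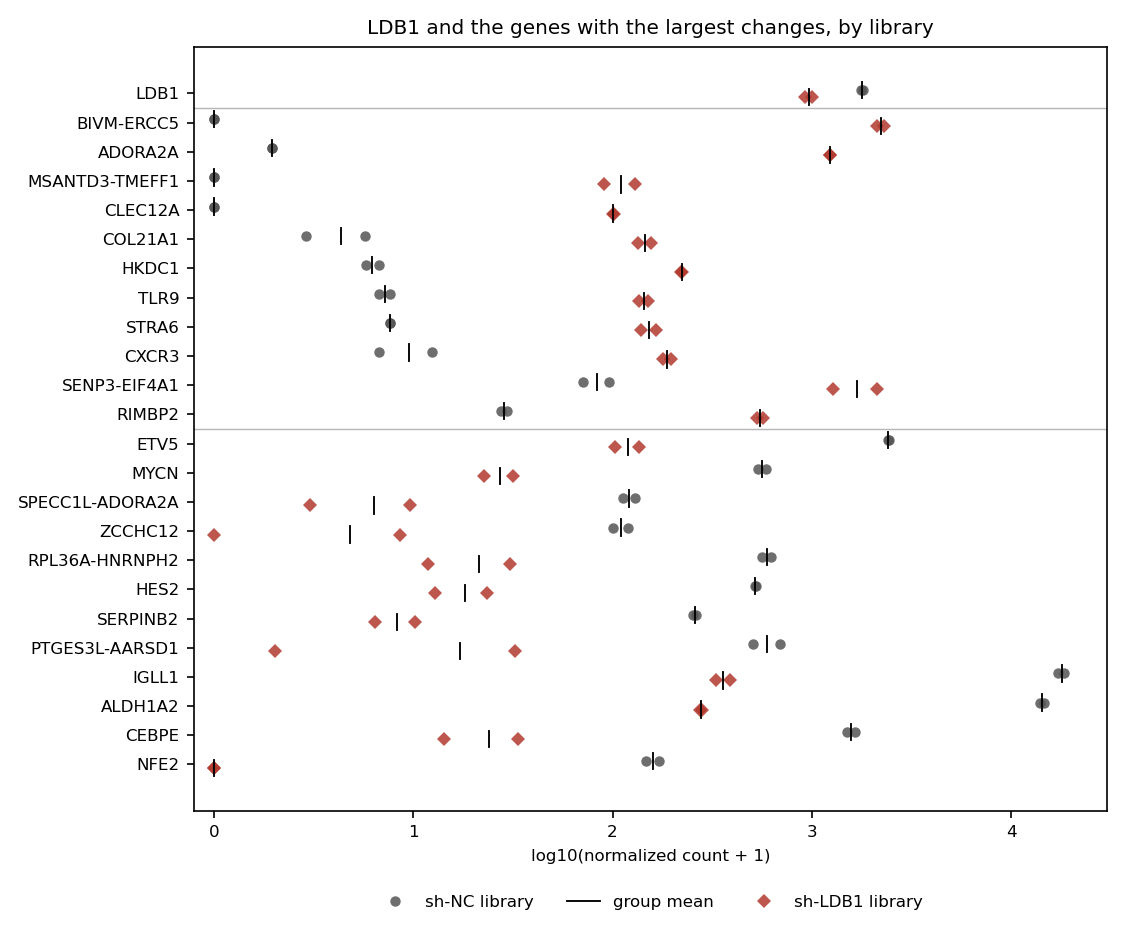
Normalized counts of LDB1 and of protein-coding genes among the 24 with the largest log2 fold changes in J.gamma1 are drawn on the x axis as log10(normalized count + 1), with 1 point per library (circles sh-NC, diamonds sh-LDB1) and a vertical line at each group mean. Genes between the grey lines rose and those below fell, and the rule that chose them required groups that do not overlap.

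Some genes were switched, with at most 3 counts in each library of one group and a mean of at least 20 normalized counts in the other. In LDB1-knockdown cells 38 of the 17215 genes tested came on, 28 of them protein-coding and all 38 called. A further 22 went off, 15 of them protein-coding and 20 called. Of all genes tested 12855 were protein-coding. Each switched gene passed the filter only through the group in which it was high, so that most were called is nearly fixed by this rule. GPR171, a receptor of T cells, had 0 and 0 normalized counts under sh-NC and 83.4 and 61.5 under sh-LDB1, at least 25.4-fold higher, and CALB2, the calcium-binding protein calretinin, had 0 and 0 against 46.6 and 83.0, at least 22.7-fold higher. ADGRG5, an adhesion receptor, had 2.85 and 0 against 65.0 and 84.0, a ratio of 52.4 (95% interval 17.6 to 257). Its fitted log2 fold change ran from 4.64 without sh-NC replicate 2 to 9.20 without sh-NC replicate 1. Of the genes that went off, TFAP2A, a transcription factor of neural crest and epithelium, had 42.8 and 42.9 against 0 and 0, at least 13.6-fold lower.

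The partners of LDB1 split. Of 26 genes listed for LDB1 complexes 20 were tested, 3 rose (15%) and 4 fell (20%), and the median log2 fold change was -0.18, against 0.00 in size over all genes tested. These and all later list counts stand against the 6.67% higher and 7.19% lower of all genes tested. LMO2, LDB2 and GATA1 did not pass the filter on low counts. The 4 that fell were TAL1, LYL1, GATA2 and CBFA2T3. TAL1, the basic helix-loop-helix factor that Jurkat cells express in excess, had 9604 and 9237 normalized counts under sh-NC and 4062 and 4007 under sh-LDB1, a change on the log2 scale of -1.22 (standard error 0.047, adjusted p = 1.36e-08). LYL1, its close relative, had 269 and 221 against 42.2 and 53.3 (-2.35), and GATA2, a stem cell GATA factor, had 341 and 354 against 155 and 140.4 (-1.23). The knockdown libraries of all 3 lay below both control libraries. CBFA2T3, the ETO2 corepressor, was at -1.01, close enough to the threshold that it was at -0.96 with upper quartile normalization factors.

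RUNX1 had 18068 and 17016 normalized counts against 9357 and 8556, a log2 fold change of -0.97 that passed on p alone and was called, at -1.03 and -1.02, without sh-LDB1 replicate 1 or sh-NC replicate 2. The LIM-only genes LMO1 (-0.81) and LMO4 (-0.73) and the GATA factor GATA3 (-0.33) passed on p alone as well. LMO1 was called, at -1.0, without sh-NC replicate 1. No SSBP gene was called. SSBP2 had 4687 and 4670.2 against 4689 and 4517 and did not pass (-0.02), SSBP3 was at 0.40 and SSBP4 at 1.00, both on p alone, and SSBP4 crossed the threshold without sh-LDB1 replicate 1 (1.08) or sh-NC replicate 2 (1.02). Of the E proteins that pair with TAL1, TCF12 was at 0.43, on p alone, and TCF3 at 0.01.

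The 3 that rose were the ID proteins, which lack a DNA-binding part and sequester E proteins. ID2 had 133 and 126 normalized counts under sh-NC and 737 and 819 under sh-LDB1, a change on the log2 scale of 2.59 (standard error 0.13, adjusted p = 6.53e-08). ID3 had 720.2 and 695 against 4002 and 4116 (2.52), and ID1 had 367 and 392 against 1059 and 1091 (1.5). The lowest knockdown library was above the highest control library in each.

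Transcription factors of leukaemic and immature blood cells moved in 1 direction where they were called. Of 28 tested, 8 fell and 0 rose, with a median log2 fold change of -0.45. The single direction depends on the fold threshold, since the highest value, 0.99, lay just below it. On p alone 7 were higher and 16 lower, against 25% and 26.5% of all genes tested. MYB, a factor that T-ALL cells need for growth, had 21404 and 19827 normalized counts under sh-NC and 3265 and 3395 under sh-LDB1, 16.2% of control, while AHI1, the gene next to it, had 1201 and 1118 against 1278 and 1308 and did not pass (adjusted p = 0.103). ERG, a stem cell ETS factor, had 114 and 126 against 31.4 and 25.6 (-2.07), IKZF2, the zinc finger factor Helios, had 10958 and 9536 against 3393 and 2728 (-1.74), and HHEX, a homeobox factor of progenitors, had 126 and 114 against 48.7 and 53.3 (-1.23). NKX2-1 was called at -2.12 from few counts and lost the call without sh-LDB1 replicate 2 (adjusted p = 0.0937) or sh-NC replicate 1 (adjusted p = 0.126). NOTCH1 (-0.88), ETV6 (-0.77), ETS1 (-0.60) and IRF1 (-0.50) were lower on p alone. On the other side MYC had 4529.6 and 4604 against 6617 and 6706, higher on p alone (0.54), as were BCL11B (0.25) and ELF1 (0.31), and LEF1 did not pass (-0.11).

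Of the homeobox genes, 6 of 34 fell and 0 rose. Of 15 stem and progenitor genes tested 7 fell and 0 rose, with a median of -0.81, LYL1, ERG and HHEX among them, since the lists share members. CD34 did not pass the filter. Red cell and platelet genes had the highest share of falls among the lists with at least 10 members tested, 7 of 10 tested, with 0 that rose, although 22 of the 32 genes listed did not pass the filter. A gene near 0 with sh-LDB1, as NFE2 is, passes the filter only through its controls. The counts of these lists therefore describe the genes that passed and not the whole lists. GYPC, a red cell membrane glycoprotein, had 4021 and 4013 against 1622 and 1682 (-1.28), and EPOR, the erythropoietin receptor, had 345 and 379 against 143 and 198 (-1.09). ITGA2B, the platelet integrin chain, was at -2.74 and ITGB3, its partner chain, at -1.45. The value of ITGA2B ran from -4.25 without sh-LDB1 replicate 2 to -2.04 without sh-LDB1 replicate 1.

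Of 27 T-cell surface genes tested, 10 rose and 1 fell, and the median log2 fold change was 0.73. TRAC, the constant segment of the T-cell receptor α chain, had 3260.5 and 3252 normalized counts under sh-NC and 10172 and 10199 under sh-LDB1, a change on the log2 scale of 1.65 (standard error 0.046, adjusted p = 1.64e-09). CD4 had 166 and 144 against 705 and 703 (2.19), CD8A had 41.9 and 37.2 against 185 and 191 (2.25), and the costimulatory receptor CD28 had 1134 and 1112 against 3046 and 3182 (1.47). The groups of these 4 genes lay far apart. CD3G, a signalling chain of the receptor complex, rose as well (1.15), while CD3E was higher on p alone (0.94). THY1 (1.25), SIT1 (1.43), CD52 (1.45) and PDCD1, which had 0 and 0 against 10.8 and 16.4, were among the others that rose. PDCD1 passed the filter only through the knockdown group, so the count of 10 describes the genes that passed. CD69, an early activation marker, was the member that fell, from 473 and 553 to 229.6 and 203 (-1.25).

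Of 30 genes that signal below the receptor 2 rose, a share near the 6.67% of all genes tested, and 0 fell, and the median was -0.16. PTPN22, a phosphatase that restrains the receptor, had 849.6 and 809 normalized counts against 2110.1 and 2123 (1.35). PTPRC, the phosphatase CD45, was higher on p alone (0.99) and was called, at 1.05 and 1.08, without sh-LDB1 replicate 2 or sh-NC replicate 1. LAT, the membrane adaptor, had 894 and 1268 against 3531 and 3713 (1.74), and its adjusted p was 0.0568 and 0.0580 without sh-LDB1 replicate 1 or 2.

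Genes of receptor gene rearrangement and of immature thymocytes moved both ways, 3 higher and 5 lower of 15 tested. RAG1, the recombinase, had 1139 and 1131 normalized counts under sh-NC and 10812 and 10411 under sh-LDB1, a change on the log2 scale of 3.22 (standard error 0.052, adjusted p = 3.27e-11). PTCRA, the surrogate α chain of the pre-T-cell receptor, had 54.2 and 75.3 against 237 and 278 (1.99). DNTT, which adds bases at the joints of rearranged genes, fell from 1356 and 1361 to 609.8 and 571 (-1.20), as did the antigen-presenting CD1A (-1.06) and CD1D (-1.10), beside IGLL1 and CHI3L2 above. In the NOTCH pathway 3 of 19 rose and 2 fell, with a median of 0.00. FBXW7, which marks NOTCH1 for degradation, had 1596 and 1596 against 3463 and 3458 (1.12), and HES6 fell (-1.07).

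Some effector genes rose from a low level. Of 30 cytotoxic and effector genes 16 passed the filter, 9 rose and 1 fell. CST7, a protease inhibitor of cytotoxic granules, had 110.4 and 76.2 normalized counts under sh-NC and 428 and 388 under sh-LDB1 (2.13). KLRD1, the CD94 receptor chain, had 0 and 0 against 27.1 and 21.5, at least 8.51-fold higher, and ZNF683, a factor of resident T cells, had 0 and 0 against 42.2 and 50.2, at least 16.2-fold higher. GZMA, a granzyme, fell from 1415 and 1566 to 595 and 655 (-1.25). Because a gene near 0 in the controls passes the filter only through the knockdown group, these counts describe the genes that passed and not the whole list.

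Of 34 cytokine receptor and JAK-STAT genes 8 rose and 3 fell. Receptors were among those that rose. IL7R, the receptor for the thymic growth factor IL-7, had 477 and 415 normalized counts against 1539 and 1462 (1.75), and IL2RB had 40.9 and 30.5 against 164 and 201 (2.35). STAT5A fell from 521 and 505 to 139.7 and 186 (-1.65) and STAT5B from 4074 and 4014 to 1596 and 1696 (-1.30). They overlap on opposite strands, and whether the counting used the strand is not given in the sources used here. Homing receptors and integrins split evenly, 9 higher and 9 lower of 33. The adhesion molecule ICAM2 fell from 2498 and 2687 to 571 and 730.5 (-1.99), against the rise of CXCR3.

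Interferon response genes rose in part. Of 34 tested, 7 rose and 1 fell, and the median was 0.33. IFIT3, an RNA-binding antiviral protein, had 20.9 and 13.3 normalized counts under sh-NC and 107 and 130.1 under sh-LDB1 (2.78), and IFI44 had 35.2 and 35.3 against 182 and 204 (2.45). BST2, which tethers virus particles to the cell, had 504 and 500.2 against 1172 and 1262 (1.28). IFIT1 was at 1.19, or 0.99 without sh-NC replicate 1. OASL fell, from 91.3 and 129.6 to 39.0 and 36.9 (-1.54).

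Interferon factors bind a short element whose core is TTTC, any 2 bases, and TTTC again. This element was searched on both strands of RefSeq promoters (GRCh38.p14, 250 bases before to 50 after the start), which were found for 11124 of 14750 tested symbols. It was present in 2.77% of all promoters, in 5.5% of those of genes that rose and in 1.95% of those of genes that fell, and in 15 of 24 promoters of the interferon list (62.5%). Of these 15 genes 5 rose, 0 fell and 10 were not called, among them ISG20, which was lower on p alone (-0.74). The windows below show it in capitals in 4 of the genes that rose and in 2, IFI6 and OAS3, that did not pass the test.
IFIT1: tagctttagTTTCACTTTCccctttcggt
IFIT3: gccgttaggTTTCATTTTCctcctcccaa
IFI44: cacactgagTTTCAGTTTCctttctctga
BST2: cctttctggGAAACTGAAActgaaaacct
IFI6: gagagagggGAAAATGAAActctgcagag
OAS3: gaaagaaacGAAACTGAAAgcagggaatt
In BST2, IFI6 and OAS3 the match is on the other strand. The windows lie at chr10:89392498-89392526, chr10:89327832-89327860, chr1:78649762-78649790, chr19:17405741-17405769, chr1:27672329-27672357 and chr12:112938322-112938350 in that order, and both a gene that rose by 2.78 and a gene at -0.22 on the log2 scale carried the element. A site of the sterol factors (SREBF) was searched too, and lay in 1.13% of all promoters, 0.472% of rising and 0.731% of falling genes. It was in 0 of 17 sterol synthesis promoters and 1 of 20 of sterol regulation and transport. A paired site of LDB1 complexes lay in 2.38% of all promoters, 3.14% of rising and 2.31% of falling genes. It was in 0 of 18 promoters of the LDB1 complex list and 2 of 23 of leukaemia transcription factors. Only fixed forms of these sites in short promoters were searched, so a count of 0 does not mean that the genes lack such sites. The study placed most LDB1 peaks of 6T-CEM in intergenic or intronic regions, which were not searched.

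Most genes of sterol synthesis were lower. All 22 genes of the list were tested, 7 fell and 0 rose, and by p alone 18 were lower and 1 higher, against 26.5% and 25% of all genes tested, with a median log2 fold change of -0.79. FDFT1, squalene synthase, had 22576 and 22732 normalized counts under sh-NC and 8719.8 and 8913 under sh-LDB1, a change on the log2 scale of -1.36 (standard error 0.042, adjusted p = 3.19e-09). HMGCS1, which makes HMG-CoA, had 8681 and 8286 against 3915 and 3977 (-1.10), and SQLE, the squalene epoxidase, had 6398 and 6174 against 3101 and 3131 (-1.01). Every library of these 3 genes lay on its group's side with a wide gap.

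INSIG1, which holds the sterol sensor in the endoplasmic reticulum, fell from 27021 and 27050.3 normalized counts to 7604 and 8189 (-1.78), and SREBF1 (-0.66) and SREBF2 (-0.62), the factors that drive these genes, were lower on p alone. Of 22 fatty acid genes 6 fell and 0 rose. SCD, the desaturase that makes oleic acid, went from 36465 and 36569 to 11017 and 10527 (-1.76), and ELOVL5, an elongase, from 23621 and 23169 to 8799.9 and 8614 (-1.43). FADS2 was called at -1.0 and sat on the threshold, at -0.99 without sh-LDB1 replicate 2. FASN, fatty acid synthase, was lower on p alone (-0.28).

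Genes of DNA replication were lower by small amounts, and no gene of mitosis was called. Of 50 replication genes 43 were lower and 3 higher on p alone, against 26.5% and 25% of all genes tested, with a median of -0.52, and 4 fell past both thresholds. CDC45, a part of the replicative helicase, had 2660.1 and 2804 normalized counts against 1179 and 1123 (-1.25), and E2F1, a factor that starts S phase, had 3305 and 3218 against 1429.8 and 1543 (-1.13). PCNA was at -0.55 and MCM2 at -0.46. Of 44 mitotic genes none was called, 15 were higher and 13 lower on p alone, and the median was 0.01. CCNB1, the mitotic cyclin, was at 0.50.

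The G1 control list had 1 gene that rose of 25 tested (4%, below the 6.67% of all genes tested) and 4 that fell (16%, against 7.19%). BTG2, an antiproliferative gene, rose from 834 and 736 normalized counts to 3726 and 3762 (2.25). CDC25A, the phosphatase that frees CDK2, fell from 4017 and 4216 to 1581 and 1494 (-1.42), and so did the inhibitor CDKN1C, from 182 and 205 to 39.0 and 44.1 (-2.21). Among 17 BCL2 family genes 2 fell (11.8%) and 0 rose. BCL2 had 1649.7 and 1565 against 533 and 536, a change on the log2 scale of -1.59 (standard error 0.078, adjusted p = 6.37e-08), with BCL2L1 (-0.57) and MCL1 (-0.14) lower on p alone. Death receptors and caspases had 2 genes that rose of 26 (7.69%) and 1 that fell (3.85%), shares near or below those of all genes tested. CASP8, the caspase of death receptors, rose from 1433 and 1445 to 4945 and 5134 (1.81), and CASP9, that of the mitochondrial pathway, fell (-1.09).

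Of 34 targets of ERK signalling 7 fell (20.6%, against 7.19% of all genes tested) and 2 rose (5.88%, near the 6.67%), with a median of -0.59. Beside ETV5 these included the feedback phosphatase DUSP6, which had 224 and 255 normalized counts against 91.0 and 84.0 (-1.45), and the immediate early factor EGR1, which had 152 and 151 against 61.7 and 62.5 (-1.28). KLF2, a quiescence factor of T cells, fell as well (-1.19).

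Of 35 genes of the MYC network and ribosome assembly 26 were higher and 3 lower on p alone, against 25% and 26.5% of all genes tested, with a median of 0.65, and 6 rose while 1, MYCN, fell. BOP1, a ribosome assembly factor, had 1809.6 and 1837 normalized counts against 4831 and 5412 (1.49), and NCL, nucleolin, had 22768 and 22781 against 39653 and 41007 (0.82, on p alone). The cytosolic ribosomal proteins themselves had 0 called of 76, and on p alone 33 were higher and 4 lower, with a median of 0.12. Of 39 genes of the ATF4 and unfolded protein responses 8 rose and 1 fell. SLC7A11, the cystine transporter, had 212 and 212 against 895 and 869.8 (2.05), DDIT4, an inhibitor of mTORC1, had 1574 and 1721 against 5627 and 6086 (1.83), and ASNS, asparagine synthetase, had 376 and 327 against 953 and 961 (1.45). ATF4 did not pass (0.08), and SLC38A2, an amino acid transporter, was the member that fell, from 20809 and 19508 to 7500.1 and 7261 (-1.45).

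Of 16 genes of the glucocorticoid response 6 rose and 2 fell, with a median of only 0.11. The receptor itself, NR3C1, had 1709.7 and 1683 normalized counts under sh-NC and 1623 and 1437 under sh-LDB1 and did not pass (-0.15). TSC22D3, which encodes the mediator GILZ, had 85.6 and 123 against 232 and 281 (1.30), and KLF13 had 1912 and 1963 against 4655 and 4620.4 (1.26). DDIT4 and IL7R are counted here too. ZBTB16, the zinc finger factor PLZF, fell from 337 and 329 to 56.3 and 52.2 (-2.61) and DUSP1, a phosphatase of MAP kinases, from 754 and 738 to 337 and 287 (-1.26).

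The NF-kB list had 2 genes that rose and 2 that fell of 22, 9.09% each way and so near the 6.67% and 7.19% of all genes tested. RELB, a subunit of the alternative pathway, went from 238 and 196 normalized counts to 68.2 and 61.5 (-1.74), and TNFAIP8L2, a negative regulator of lymphocyte activation, from 8.56 and 9.53 to 105 and 119.9 (3.62). Of 28 ion channel genes 2 rose (7.14%, near the 6.67% of all genes tested) and 4 fell (14.3%, against 7.19%). KCNA3, the main potassium channel of T cells, went from 387 and 319 to 86.7 and 93.2 (-1.97), KCNH2 from 2038 and 2167 to 828 and 876 (-1.30), and the calcium-permeable channel TRPM2 from 172 and 192 to 720.3 and 674 (1.93).

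Other lists had no or few called members. None of 36 chromatin modifiers, 66 nuclear genes of oxidative phosphorylation or 13 mitochondrially encoded proteins was called. Of 22 looping genes 1 fell (4.55%, below the 7.19% of all genes tested) and 0 rose. It was HDAC8, which deacetylates cohesin, from 776 and 771 normalized counts to 259 and 284 (-1.51).

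**Figure D3:**
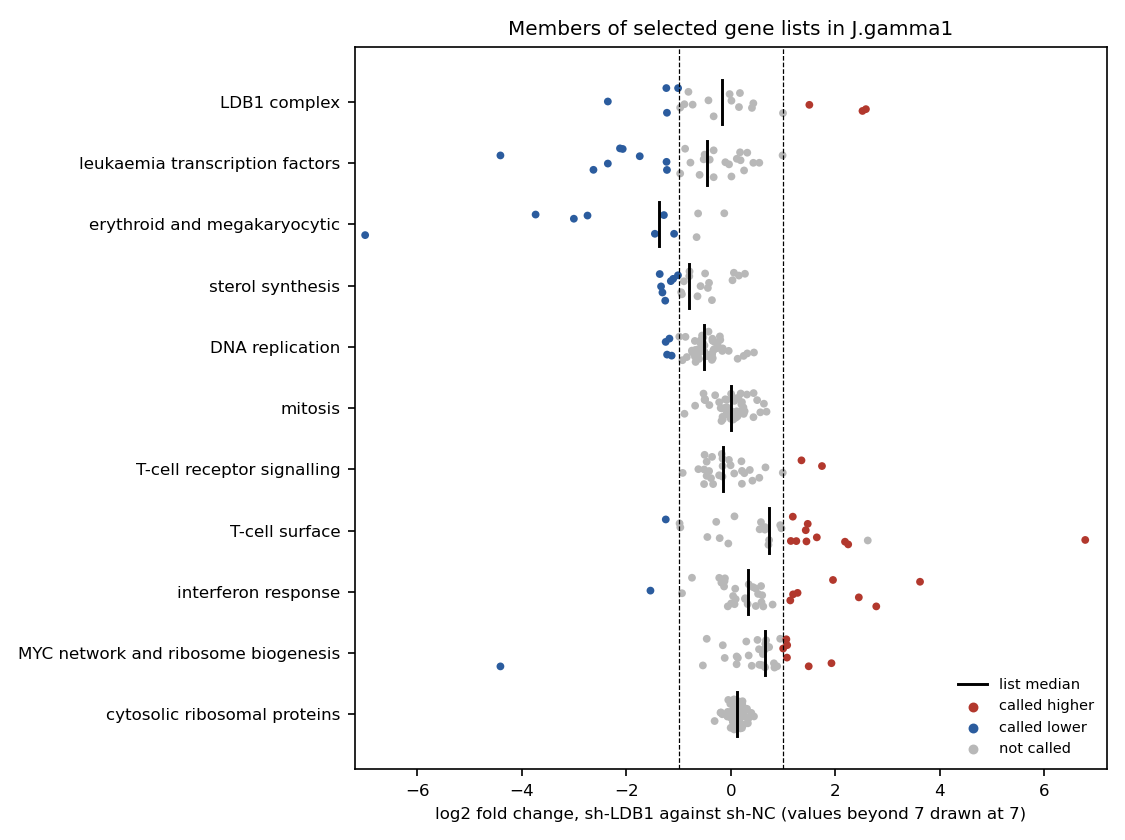
Each point is 1 tested member of a list, placed by its log2 fold change on the x axis, with a vertical bar at the list's median and dashed lines at a log2 fold change of 1 in either direction. T-cell surface members lie mostly to the right, with a median of 0.73, sterol synthesis members to the left, with a median of -0.79, and mitotic and ribosomal protein members around 0. Values beyond 7 in size are drawn at 7.

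Called genes also lay side by side. Runs of at least 3 neighbouring tested genes called in the same direction numbered 22 for genes that rose, with 73 genes, and 19 for genes that fell, with 63 genes. Whether this is more than scattered calls would give was not tested. The runs held 136 of the 15904 tested genes with a position, against 2386 called genes in all. The longest, of 8 genes, was the T-cell receptor α locus from TRAV8-6 to TRAC (chr14:21978459-22552156), where TRAV17 had 50.4 and 47.6 normalized counts against 198 and 268. The variable segments resemble each other, so reads may be divided among them, and TRAJ2 in this run rested on few counts and lost its call whichever of the 4 libraries was left out.

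On chromosome 10 the aldo-keto reductases AKR1C1, AKR1C2 and AKR1C3 and a pseudogene fell together (chr10:4871901-5107686). AKR1C3 had 1725 and 1682 normalized counts under sh-NC and 252 and 253 under sh-LDB1 (-2.75), and near-identical copies make the division of reads in this family uncertain. CABCOCO1, ARID5B and RTKN2 fell over a wider stretch of the same chromosome (chr10:61662929-62268844). ARID5B, a factor linked to childhood leukaemia, had 5509 and 5046 against 2413 and 2512 (-1.10), and CABCOCO1 had 1050.3 and 1007 against 156 and 141 (-2.79). CEBPE lay between C14orf119 and SLC7A8, which fell with it.

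In 6T-CEM 5.13% of 16059 genes were called, 2.74% higher and 2.39% lower, and LDB1 changed by -1.60 (standard error 0.07) on the log2 scale. The change of LDB1 was smaller in J.gamma1, by a difference of 0.70 (standard error 0.09) with an adjusted p of 0.000237 from edgeR's test of the interaction over all 8 libraries. Of the 12 genes that rose most in J.gamma1, all 12 were tested in 6T-CEM, 11 had the same sign there and 5 were called in the same direction. Of the 12 that fell most, 9 were tested in 6T-CEM and 7 were called in the same direction, and none of the 24 was called the other way. These tallies count read-through genes, and without them 8 of 9 rising genes had the same sign and 4 were called, and all 7 falling genes that were tested were called. These genes were chosen for their size in J.gamma1, so that they changed more there is partly fixed by the choice, and the test of the difference (passed by 24.4% of all 18552 genes and by 16 of the 24, read-through genes included) is given as a description.

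The lines, whose counts were normalized separately, can be set side by side for the level of these genes. CLEC12A had no count in the J.gamma1 controls but 65.5 normalized counts on average in the 6T-CEM controls and 90.1 after knockdown. TLR9 started at 751 in 6T-CEM and rose to 2103, and ADORA2A rose there from 557 to 1471. ALDH1A2 and IGLL1 were abundant in the controls of both lines and fell in both, in 6T-CEM to 2457 from 9125 and to 1347 from 8878.

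**Figure D4:**
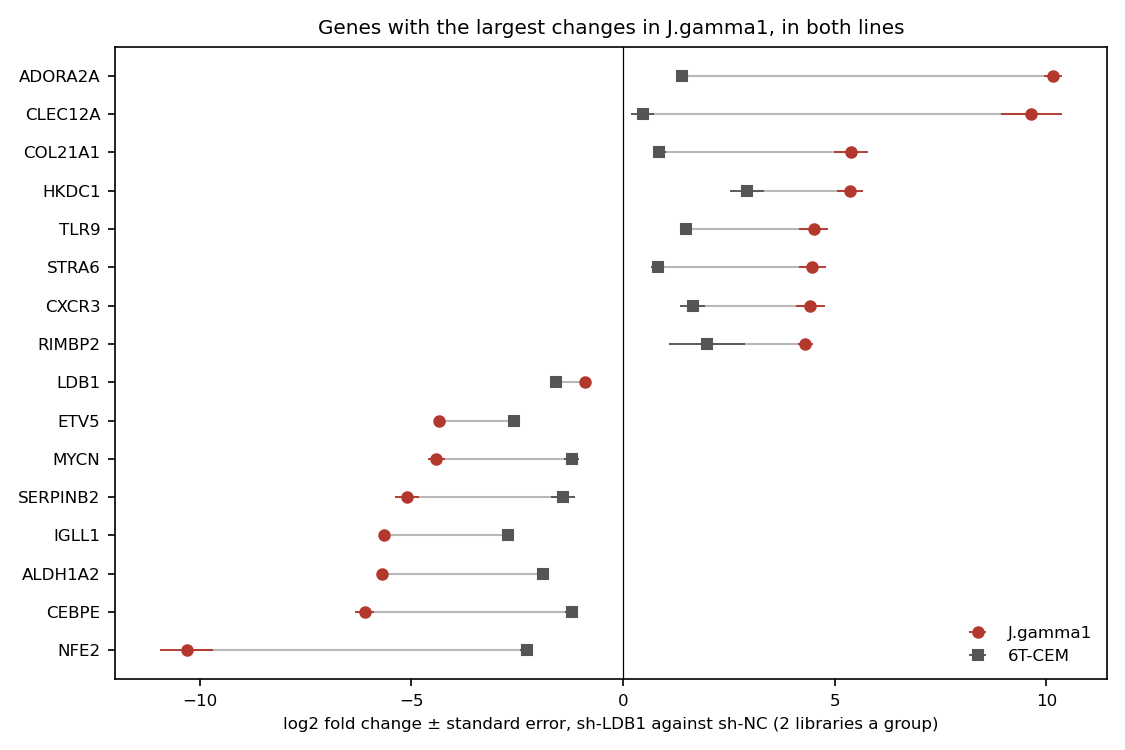
Log2 fold changes of sh-LDB1 against sh-NC on the x axis, with standard errors as bars, in J.gamma1 (circles) and 6T-CEM (squares) for LDB1 and genes among those with the largest changes in J.gamma1, read-through genes and genes not tested in 6T-CEM left out. LDB1 lies at -0.89 in J.gamma1 and -1.60 in 6T-CEM, and the fitted J.gamma1 values of NFE2 and CLEC12A, which have no count in one group, have no fixed size.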

How the data were processed

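RNA sequencing libraries of J.gamma1 and 6T-CEM cells, 2 with sh-NC and 2 with sh-LDB1 in each line, were analysed. Per the labels and the study's methods, the authors aligned the reads with HISAT2 2.2.0 and estimated expression with StringTie. The authors deposited raw read counts per gene, 1 table for each line. Strand setting, annotation release and treatment of reads with several positions are not given in the sources used here, so division of reads among overlapping or near-identical genes can move their counts. Groups were taken from the sample labels.

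J.gamma1 was fitted alone in edgeR 4.0.16 (R 4.3.3) with filterByExpr, TMM factors and the robust quasi-likelihood test, and p-values of the 17215 genes were adjusted by Benjamini-Hochberg. Calls needed a log2 fold change larger than 1 in size and an adjusted p below 0.05. 6T-CEM was fitted in the same way, and the difference between the lines as an interaction over 8 libraries. The fit was tested on simulated data. Total counts ran from 26160492 to 30604977. The biological coefficient of variation was 9.16% and the median standard error of a log2 fold change 0.119. Replicates correlated at 0.986 and 0.987 (log2 CPM), and no libraries were duplicates. Positions came from GENCODE 44 (GRCh38), in which 1311 tested genes had no entry.

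Named genes were LDB1, the 12 rising and 12 falling called protein-coding genes with the largest log2 fold change (mean of at least 100 normalized counts in the higher group, no overlap), the 5 per direction with the largest difference in counts, switched genes, up to 6 called members per list and direction, members that did not pass, genes in runs and genes the study names. Some genes that this rule names are not reported here, although counts include them. The 40 gene lists and the members were chosen with earlier results of these data known. Exact binomial intervals (95%) and floors of 3 counts per library cover counting error only. The alternatives were other size factors, filters and thresholds, DESeq2 1.42.0, a replicate block, a fit to 8 libraries, leaving out each library, and, chosen after seeing the data, summed counts of genes that share exon bases.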

Additional observations from a re-analysis of the deposited data

Results flagged for a closer look

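The effect of the LDB1 shRNA differed between J.gamma1 and 6T-CEM for LDB1 and for the genes named here, which are among those with the largest changes in J.gamma1, by edgeR's test of the interaction over 8 libraries. For LDB1 the log2 fold change in J.gamma1 minus that in 6T-CEM was 0.70. The other genes were chosen for their change in J.gamma1, so their differences are a description.

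Among the genes that rose in J.gamma1, the difference was 8.75 for ADORA2A, 4.52 for COL21A1 and 3.66 for STRA6. It was 3.01 for TLR9, 2.78 for CXCR3 and 2.43 for HKDC1. For CLEC12A it was 9.12, a fitted value of no fixed size because the J.gamma1 controls had no count. The value of ADORA2A depends on how reads were divided between it and SPECC1L-ADORA2A, a read-through gene that shares its exon bases. Summed over both genes the log2 ratio in J.gamma1 was 3.35, and the difference between the lines was not tested for this sum.

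Among the genes that fell, the difference was -4.90 for CEBPE, -3.80 for ALDH1A2, -3.68 for SERPINB2 and -3.20 for MYCN. It was -2.93 for IGLL1 and -1.77 for ETV5. For NFE2 it was -7.97, again with no fixed size since the knockdown group had no count. For the read-through gene SPECC1L-ADORA2A, which did not pass the filter in 6T-CEM alone, it was -8.53.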

How the results depend on the processing

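The count of 2386 called genes depended most on the fold threshold. With no fold threshold 8870 genes were called, 4300 higher and 4570 lower, and with a test against a log2 fold change of 1 (glmTreat) there were 854, 364 higher and 490 lower. Under the other alternatives it ran from 1872 (adjusted p under 0.01) to 2412 (upper quartile factors), with 1922 by DESeq2. Leaving out 1 library, where the lone sample is assumed to vary like the others, gave 2062 to 2390 called genes, 896 to 1167 higher and 1161 to 1223 lower, and LDB1 at -0.94 to -0.83. Of 313 named genes that were called, 250 kept their call without each library in turn and 63 lost it without at least 1, and of 42 that were not called 7 gained one.

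Replicates with the same number did not deviate together (correlation -0.0357), so no shared replicate effect was seen. The labels do not say whether equal numbers mark a shared culture or day, and this correlation cannot decide it. With the replicate block 2240 genes were called, 1050 higher and 1190 lower, LDB1 was at -0.89, and 17 of the top genes differed between the lines, against 16 without it.

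Summed with the genes that share their exon bases, 3 of the top genes changed sign: MSANTD3-TMEFF1 to -1.26, SPECC1L-ADORA2A to 0.36 and BIVM-ERCC5 to -0.13. Low counts limit the switched genes, whose folds are bounds where a group has no count and ratios with wide intervals where it has 1 to 3.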
